A study of Mus musculus with 16 samples.

Results

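Cytochrome P450 families 1 to 3 were followed in mouse liver under 4 oxygen regimes. The members were all protein-coding genes whose symbol is Cyp1, Cyp2 or Cyp3 with a subfamily letter and a number, and that had at least 10 counts in at least 4 of the 16 libraries. Of the 55487 genes in the deposited table, 58 carry such a symbol. The count rule was met by 44 of them, and 3 that met it (Cyp2a4, Cyp2b9 and Cyp2d9) were left out by name, which gave 41 members. The other 14 stayed under the rule. Nearest to it were Cyp2j8, Cyp2b13 and Cyp2c65, which reached 10 counts in 1 library each (30.0, 22.0 and 13.1 counts), against 4 libraries needed.

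Livers came from wild-type C57BL/6J mice aged 12 weeks, with 4 libraries per group. The control mice were kept in room air. The other groups were exposed to sustained hypoxia, to intermittent hypoxia, or to overlap hypoxia, which joins both patterns per the series title. How low oxygen was set, how long exposure lasted, the sex of the mice and the hour of collection could not be read from the labels.

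P450 enzymes are haem proteins of the endoplasmic reticulum that add an oxygen atom to a substrate with electrons from P450 oxidoreductase. Families 1 to 3 act mainly on drugs, plant compounds and pollutants, and several members also oxidise steroids, bile acids, vitamin D and arachidonic acid. In liver most of them are made by hepatocytes, many of them near the central vein, where oxygen is lowest. Their transcription depends on receptors for foreign compounds (AHR, PXR, CAR), on liver factors such as HNF4A, on growth hormone through STAT5B, and on the clock-driven factors DBP, TEF and HLF.

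The libraries held 10940275 counts (overlap hypoxia replicate 3) to 64789635 counts (sustained hypoxia replicate 2). Ribosomal RNA genes took 1.57 to 10.2% of counts in room air, 1.55 to 2.77% in sustained hypoxia, 18.5 to 34.8% in intermittent hypoxia and 2.53 to 16.8% in overlap hypoxia. Intermittent hypoxia did not overlap with any other group in this share, so that in its comparisons the exposure and the make-up of the library cannot be told apart. Mitochondrial genes took 1.18 to 2.75% of counts in room air and 6.23 to 11.7% in intermittent hypoxia. The hepatocyte gene Alb was at 36132 to 60643 CPM (each library's counts scaled to a common total, with TMM factors). The labels' protocol text speaks of retina, but the photoreceptor gene Rcvrn and the pigment epithelium gene Rpe65 were at 0 counts in all 16 libraries, and the 5 retina markers together reached 2.80 to 10.6 CPM, nearly all of it Gnat1. In bulk RNA, fewer cells of a type and less RNA per cell cannot be told apart. Each library carries a number of its own in the labels, but they do not say that it stands for a mouse, so the p-values measure the spread between these samples, whose source is not stated.

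Of the members, 13 lie on chromosome 19 (Cyp2c) and 9 on chromosome 7 (Cyp2a, Cyp2b and single members of 5 other subfamilies). Another 7 lie on chromosome 15 (Cyp2d), 5 on chromosome 5 (Cyp3a) and 3 on chromosome 4 (Cyp2j). Many lie close to related genes, but Cyp2e1 and Cyp2r1 lie far from the other chromosome 7 members. Cyp2c23 and Cyp3a13 also lie apart from the rest of their subfamilies. Chromosome 9 holds Cyp1a1 and Cyp1a2, chromosome 17 Cyp1b1 and chromosome 3 Cyp2u1. Because duplicated genes resemble each other, reads may be shared out between them by estimation. Of the 41 members, 14 shared over 20% of their 50-base words with transcripts of other genes, and 3 (Cyp2c40, Cyp2c67 and Cyp2c69) over 50%. Changes of these genes are uncertain for that reason. Sums over whole subfamilies are given where such a gene is described. They also take in the genes left out or under the count rule, and Cyp3a genes whose number is followed by a letter.

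Levels per length, in CPM per kilobase of exon, spanned a wide range. Highest was Cyp2e1, which oxidises ethanol and paracetamol, at a mean of 2378 over the 16 libraries (range 1478 to 3047). Cyp3a11, the main drug- and steroid-oxidising Cyp3a enzyme of mouse liver, followed at 1258 (616 to 2393). Cyp2a5, the coumarin 7-hydroxylase, stood at 733 (299 to 1376) and Cyp2d10 at 601 (381 to 732). Cyp2d26 was the fifth at 273 (208 to 335), close to Cyp1a2, the caffeine-oxidising enzyme of the AHR pathway, at 270.1 (128 to 483). Neighbours in this order had overlapping ranges over the 16 libraries, except that every Cyp2d10 value lay above every Cyp2d26 value. At the other end, Cyp2s1, Cyp1b1, Cyp3a44 and Cyp2d11 stayed at means of 0.0263, 0.0647, 0.143 and 0.204, where a few reads decide a fold change.

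**Figure D1:**
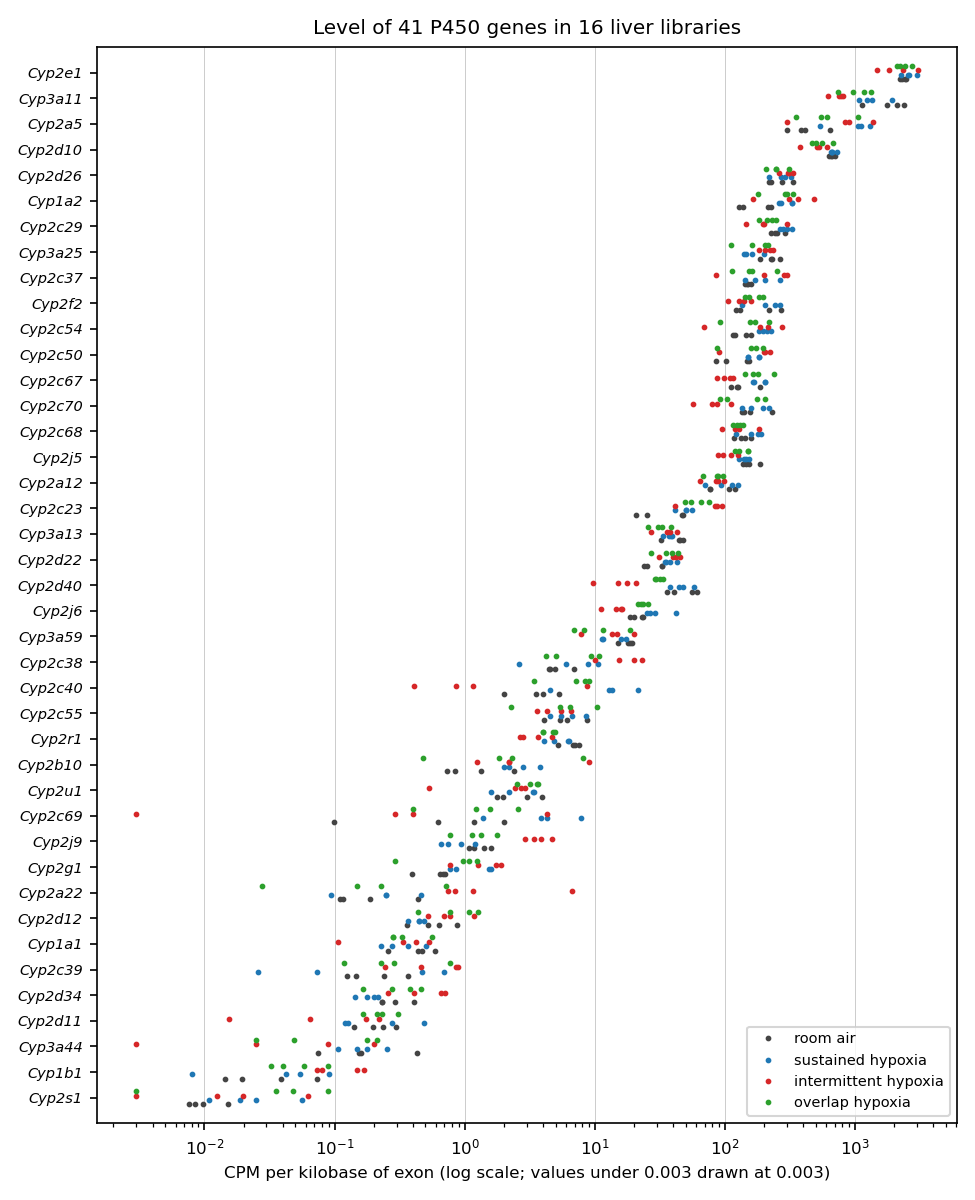
Level of each of the 41 P450 genes in CPM per kilobase of exon (horizontal log axis) in the 16 libraries, 1 point per library coloured by group, genes ordered by their mean. Cyp2e1 and Cyp3a11 lead, and the intermittent hypoxia points of Cyp3a11 lie to the left of all room air points.

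Together the members took 1.72 to 2.51% of all counts in room air and 1.25 to 2.21% in intermittent hypoxia. On the TMM scale their summed level was 21892 ± 2532 CPM in room air, 22244 ± 2113 in sustained hypoxia, 16650.0 ± 3708 in intermittent hypoxia and 18184 ± 1163 in overlap hypoxia (SD, n = 4). Cyp3a11 alone made up 31.7 to 50.6% of that sum in room air but 19.9 to 26.6% in intermittent hypoxia. Without Cyp3a11 the sum was 12507 ± 670 CPM in room air and 12871 ± 3281 in intermittent hypoxia. These sums are a description and were not tested.

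Intermittent hypoxia against room air. Cyp3a11, Cyp2c70 and Cyp2d40 were among the members that fell, and Cyp2j9, Cyp2c38, Cyp2c23, Cyp1a2 and Cyp2a22 among those that rose. By edgeR's quasi-likelihood test at a Benjamini-Hochberg adjusted p under 0.05 over all 14553 genes tested, 8 of 41 members rose and 7 fell. Over all genes the test called 18.9% higher and 18.3% lower, so the members' counts are near the background. The median log2 fold change of the members was -0.11, and 0.03 over all genes. Without room air replicate 3, and likewise without intermittent hypoxia replicate 2, 5 members were called higher.

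Cyp3a11 changed most in amount. Its level was 5790.4, 8928, 12188 and 10634 CPM in the room air libraries and 3139, 3819.6, 4013 and 4145 CPM in intermittent hypoxia. Every intermittent hypoxia library lay below every room air library. Cyp3a11 fell by 1.31 (SE 0.23, adjusted p = 0.000209) on the log2 scale, that is to a level 2.48-fold lower. Leaving out any 1 library kept the call, with log2 values from -1.50 to -1.17. With the ribosomal RNA share as a covariate the value was -1.34 (adjusted p = 0.16). The other Cyp3a genes, Cyp3a13, Cyp3a25, Cyp3a44 and Cyp3a59, had negative values from -1.29 to -0.11, none past the test. The summed Cyp3a counts fell by 1.21 (SE 0.22, adjusted p = 0.000266).

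Cyp2c70 makes the muricholic acids, the rodent bile acids. It stood at 460.0, 309, 276 and 268 CPM in room air and at 158, 113, 173 and 221 CPM in intermittent hypoxia, with no overlap. It fell by 0.98 (SE 0.27, adjusted p = 0.00799) on the log2 scale. Cyp2c70 shares no 50-base word with another gene. Of the other 12 Cyp2c members, Cyp2c38 and Cyp2c23 rose and 10 did not pass. Cyp2c38 was at 12.9, 14.3, 19.9 and 12.7 CPM in room air and at 28.9, 44.2, 65.8 and 57.5 CPM in intermittent hypoxia, a log2 rise of 1.71 (SE 0.42, adjusted p = 0.00588). Every intermittent hypoxia library was above every room air library. Cyp2c23, which turns arachidonic acid into epoxides, rose by 1.13 (SE 0.27, adjusted p = 0.00382), from 75.5 ± 30.1 to 166 ± 51.3 CPM (SD, n = 4). Its groups overlapped, since intermittent hypoxia replicate 4 (89.9 CPM) lay below room air replicates 1 and 2. The summed Cyp2c counts did not pass (log2 0.07, SE 0.16, adjusted p = 0.77).

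Among the Cyp2d genes the largest fall was that of Cyp2d40. Its room air libraries held 64.5, 100.3, 73.2 and 110.1 CPM and its intermittent hypoxia libraries 17.4, 32.0, 27.0 and 37.3 CPM. Cyp2d40 fell by 1.61 (SE 0.20, adjusted p = 1.76e-05) on the log2 scale, to a level 3.06-fold lower, and every intermittent hypoxia library was below every room air library. Cyp2d10, the most abundant Cyp2d gene, fell by 0.39 (SE 0.15, adjusted p = 0.0455), from 1078, 1155, 1097 and 1045 CPM to 627, 1012, 875 and 835 CPM. That call was lost without room air replicate 1, 2, 3 or 4, sustained hypoxia replicate 2 or intermittent hypoxia replicate 1, 3 or 4 (log2 -0.42 to -0.28, adjusted p from 0.0522 to 0.123). With offsets for length and GC content it was smaller and did not pass (log2 -0.19, adjusted p = 0.311). Cyp2d22, which passed in the other direction, rose by 0.46 (SE 0.16, adjusted p = 0.0288), from 113 ± 19.1 to 155 ± 22.7 CPM. It did not pass without room air replicate 3 or 4 or intermittent hypoxia replicate 3 or 4 (log2 0.37 to 0.44, adjusted p from 0.0569 to 0.0993). Cyp2d11, Cyp2d12, Cyp2d26 and Cyp2d34 did not pass. The summed Cyp2d counts did not pass either (log2 -0.29, SE 0.16, adjusted p = 0.151).

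Neighbours on chromosome 4 moved apart. Cyp2j5, an arachidonic acid epoxygenase and the leading Cyp2j gene of liver, was at 344, 358, 435 and 323 CPM in room air and at 227, 207, 261 and 297 CPM in intermittent hypoxia. It fell by 0.56 (SE 0.14, adjusted p = 0.00386). Cyp2j6 was at 84.8, 67.7, 72.3 and 83.1 CPM and at 40.1, 57.3, 52.5 and 58.8 CPM, and fell by 0.56 (SE 0.16, adjusted p = 0.00809). Neither gene's groups overlapped. Cyp2j9 lies between them and was at 5.30, 3.58, 4.71 and 3.96 CPM in room air against 11.4, 12.9, 15.8 and 9.70 CPM in intermittent hypoxia. Cyp2j9 rose by 1.50 (SE 0.23, adjusted p = 8.62e-05), to a level 2.83-fold higher, with no overlap between the groups. These 3 genes share at most 0.4% of their words with others. Cyp2j5 holds most of the subfamily's counts, and the summed Cyp2j counts fell by 0.52 (SE 0.13, adjusted p = 0.00401). Within intermittent hypoxia the Cyp2j9 level had the same order as the ribosomal RNA share in the 4 libraries. This order is given for Cyp2j9 alone and was not tested. With the ribosomal RNA share as a covariate the log2 value of Cyp2j9 was 0.69 (adjusted p = 0.41).

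The bases before the start of these 3 genes are shown because neighbours that moved in opposite directions can be compared there. All are from RefSeq, build GRCm38.p6, minus strand, from 250 bases before the RefSeq start to the base before the GENCODE gene: Cyp2j5 at chr4:96664155-96664369, Cyp2j6 at chr4:96553662-96553901 and Cyp2j9 at chr4:96591579-96591735. Capitals mark the AHR-ARNT core GCGTG, the only searched motif found in their 250-base windows.
Cyp2j5: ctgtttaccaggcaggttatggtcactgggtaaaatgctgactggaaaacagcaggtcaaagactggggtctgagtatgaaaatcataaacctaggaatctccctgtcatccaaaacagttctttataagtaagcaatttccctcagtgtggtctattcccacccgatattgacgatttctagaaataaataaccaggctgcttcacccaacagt
Cyp2j6: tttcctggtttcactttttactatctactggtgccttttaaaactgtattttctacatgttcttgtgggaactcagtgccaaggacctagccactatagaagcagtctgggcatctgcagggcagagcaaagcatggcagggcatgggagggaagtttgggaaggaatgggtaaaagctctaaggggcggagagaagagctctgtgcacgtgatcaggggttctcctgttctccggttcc
Cyp2j9: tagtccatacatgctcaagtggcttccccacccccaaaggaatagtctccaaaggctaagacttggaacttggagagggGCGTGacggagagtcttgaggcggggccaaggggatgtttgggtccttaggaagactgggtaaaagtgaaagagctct
GCGTG occurred in the Cyp2j9 window, 171 to 167 bases before the start, and not in those of Cyp2j5 and Cyp2j6. Variants of these letters were not searched, and the Cyp2j6 sequence above holds one, ACGTG. This short core is common: on both strands it was in 28.2% of 32851 windows of the same length and in 5 of the 36 windows of members (13.9%). A match in letters does not show that a factor binds.

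**Figure D2:**
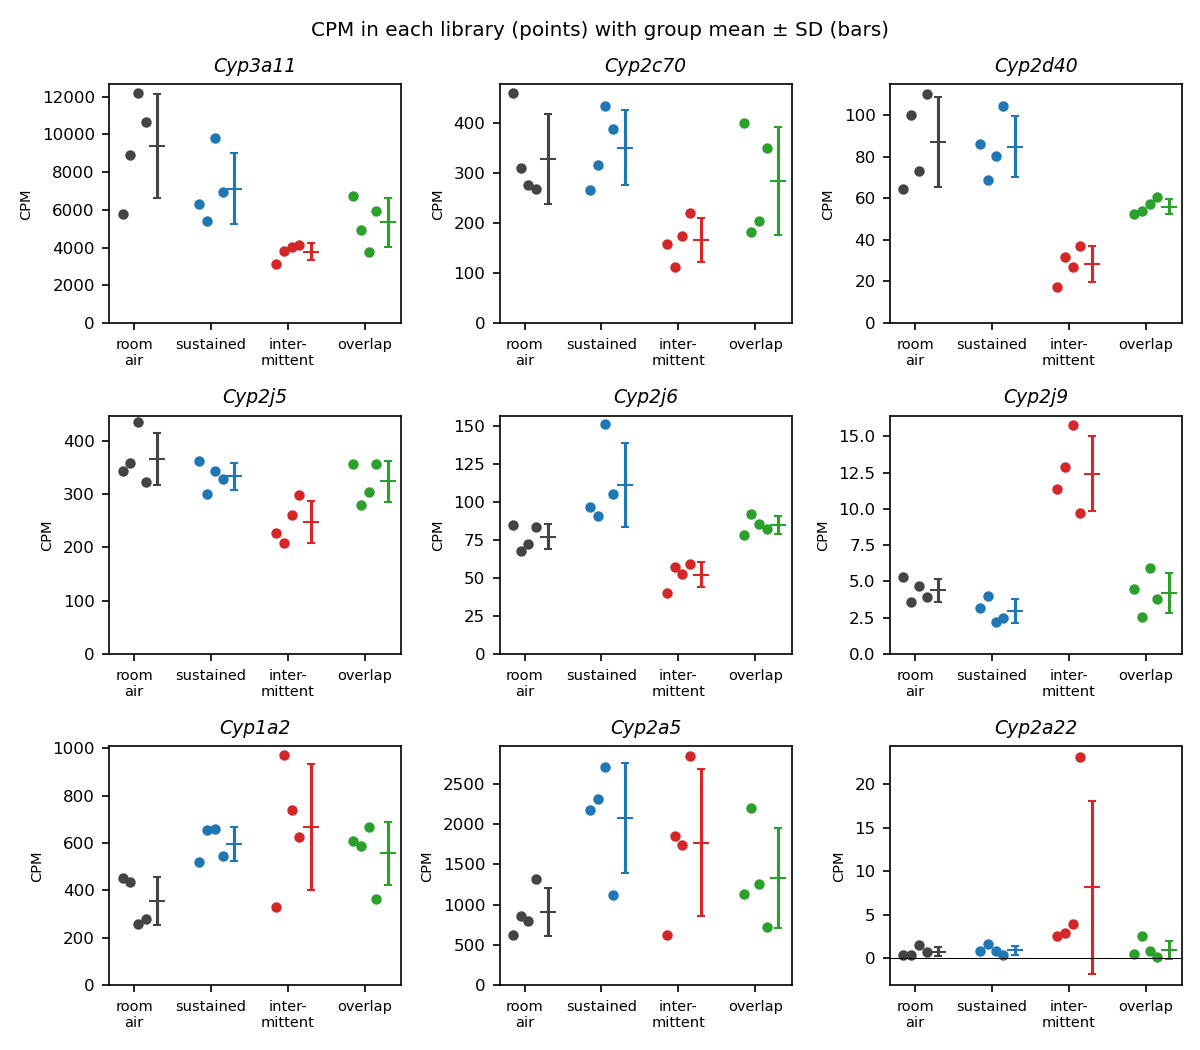
CPM (vertical axes include 0) of 9 P450 genes in each library (points) with the mean ± SD of the 4 libraries of a group (bars beside the points). In intermittent hypoxia every point of Cyp3a11, Cyp2c70, Cyp2d40, Cyp2j5 and Cyp2j6 lies below every room air point, and every point of Cyp2j9 above.

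Family 1 had 1 abundant and 2 scarce members. Cyp1a2 was at 452, 435, 258 and 277 CPM in room air and at 331, 972, 741 and 624 CPM in intermittent hypoxia. It rose by 0.91 (SE 0.27, adjusted p = 0.0151), although intermittent hypoxia replicate 1 lay among the room air libraries. The call was lost without intermittent hypoxia replicate 2 (log2 0.67, adjusted p = 0.0548). Cyp1a1, the inducible partner gene beside it, was at 0.715 to 1.66 CPM in room air and 0.295 to 1.48 CPM in intermittent hypoxia and did not pass (log2 -0.36, SE 0.42). Cyp1b1 rose by 1.68 (SE 0.65, adjusted p = 0.0466) at levels of 0.0838 to 0.432 against 0.431 to 0.984 CPM. A few reads decide these levels, and the call was lost without room air replicate 1, 2 or 3, sustained hypoxia replicate 1 or 3, intermittent hypoxia replicate 1, 2 or 3 or overlap hypoxia replicate 1, 2 or 4 (log2 1.41 to 1.83, adjusted p from 0.0532 to 0.124).

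Cyp2a22 had the largest log2 value, and 1 library carried much of it. Room air libraries held 0.398, 0.377, 1.51 and 0.648 CPM and intermittent hypoxia libraries 2.58, 2.89, 3.97 and 23.1 CPM. Cyp2a22 rose by 3.47 (SE 0.96, adjusted p = 0.0126), and the value was 2.07 without intermittent hypoxia replicate 4 (adjusted p = 0.0408). The gene shares 20.2% of its words with Cyp2a12, which is far more abundant (222 to 339.1 CPM in intermittent hypoxia) and did not pass (log2 -0.17, SE 0.19). Cyp2a5 was at 627, 859.8, 802 and 1323 CPM in room air and 619, 1858, 1735 and 2853 CPM in intermittent hypoxia, a difference of 0.97 (SE 0.44, adjusted p = 0.1). It did not pass, and without intermittent hypoxia replicate 1, the lowest library, it was 1.24 (adjusted p = 0.0176). The summed Cyp2a counts did not pass (log2 0.75, SE 0.34, adjusted p = 0.101). Cyp2g1, best known from the olfactory lining, rose by 1.22 (SE 0.38, adjusted p = 0.0162), from 0.85 to 1.51 CPM to 1.65 to 4.07 CPM. The call was lost without room air replicate 3 or intermittent hypoxia replicate 2 (log2 1.06, adjusted p from 0.0552 to 0.0581). Cyp2b10, the usual reporter of CAR activity, had 4.62, 2.61, 4.67 and 19.1 CPM in intermittent hypoxia against 1.55, 2.82, 5.03 and 1.78 CPM in room air and did not pass (log2 1.48, SE 0.78, adjusted p = 0.157).

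Cyp2r1, the vitamin D 25-hydroxylase, was at 11.1, 14.3, 15.9 and 14.9 CPM in room air and at 5.93, 5.63, 7.73 and 9.99 CPM in intermittent hypoxia. Its groups did not overlap and it fell by 0.94 (SE 0.19, adjusted p = 0.000747). Cyp2e1, the most abundant member per length, showed no call: its 4 intermittent hypoxia libraries ran from 3189.5 to 6575 CPM around the room air range of 4822 to 5343 CPM, with a difference of -0.12 (SE 0.18, adjusted p = 0.63). Its sign was positive without intermittent hypoxia replicate 1 and with 2 other settings. Cyp2d26 was at 0.21 (SE 0.16, adjusted p = 0.325). Cyp2f2, which oxidises naphthalene and overlaps the antisense gene Gm15883 over 13.5% of its exon bases (the strand setting is not given in the sources used here), was at -0.48 (SE 0.24), Cyp2u1 at -0.32 (SE 0.43) and Cyp2s1 at 1.31 (SE 1.01), none past the test.

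By subfamily, 7 sums passed in this comparison. Besides Cyp3a and Cyp2j these were Cyp1a (0.90), Cyp1b (1.68), Cyp2g (1.22) and Cyp2b (3.20, SE 1.01, adjusted p = 0.0262) on the higher side and Cyp2r (-0.94) on the lower. The Cyp2b sum rested on 1 library: it was 8.64, 5.16, 7.03 and 83.4 CPM in intermittent hypoxia and 1.60, 2.84, 5.20 and 1.76 CPM in room air, and without intermittent hypoxia replicate 4 it did not pass (log2 1.28, adjusted p = 0.18). It also did not pass without room air replicate 1, 2 or 4. Cyp2b10, the only Cyp2b member, held 19.1 CPM in intermittent hypoxia replicate 4. Most of the Cyp2b sum in that library thus came from genes that are not members. The Cyp1a sum did not pass without room air replicate 3 or 4 or intermittent hypoxia replicate 2, and those of Cyp1b and Cyp2g lost their calls as Cyp1b1 and Cyp2g1 did. Members called higher had longer exons (median 3103 bases) than those called lower (2115 bases), beside 2055 bases in the 26 members without a call. With offsets for length and GC content 7 members were called higher and 6 lower. With the ribosomal RNA share as a covariate 1 call was left, that of Cyp2a22, while the log2 values of the other 14 members kept their sign. They were Cyp1a2 (0.70), Cyp2j9 (0.69), Cyp2c38 (2.10), Cyp1b1 (2.33), Cyp2g1 (2.29), Cyp2c23 (0.52) and Cyp2d22 (0.67) on the higher side, and Cyp3a11 (-1.34), Cyp2d40 (-1.32), Cyp2c70 (-1.50), Cyp2r1 (-0.81), Cyp2j6 (-0.55), Cyp2j5 (-0.69) and Cyp2d10 (-0.24) on the lower. Without room air replicate 3, and without intermittent hypoxia replicate 2, 4 subfamily sums passed.

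**Figure D3:**
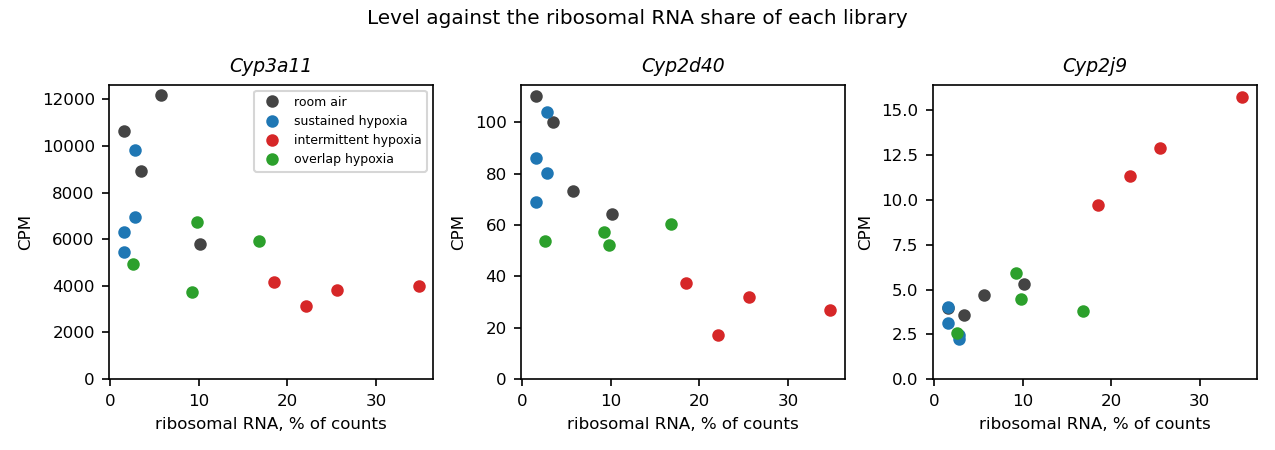
CPM of Cyp3a11, Cyp2d40 and Cyp2j9 (vertical axes from 0) against the share of ribosomal RNA in each library's counts in percent (horizontal axis), 1 point per library. The 4 intermittent hypoxia libraries lie at 18.5 to 34.8%, to the right of all others.

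Sustained hypoxia against room air. No member passed the test under edgeR, DESeq2 or limma-voom. The whole table gave few calls as well, 0.0206% of genes higher and 0.0275% lower. The members' median log2 value was 0.20, against -0.01 over all genes. Cyp1a2 lay at 521, 656, 659.8 and 546 CPM, each library above every room air library, with a difference of 0.74 (SE 0.27, adjusted p = 0.307). Cyp2a5 held 2169, 2314, 2709 and 1113 CPM, with 3 libraries above all of room air and replicate 4 within its range, with a difference of 1.20 (SE 0.44, adjusted p = 0.321). Cyp2j6 was at 96.4, 90.9, 151 and 105 CPM, also above every room air library (log2 0.53, SE 0.16, adjusted p = 0.211). Cyp3a11 was at 6300.1, 5433, 9813 and 6941 CPM, within the room air range except replicate 2, which lay below it (log2 -0.40, SE 0.22, adjusted p = 0.528). Cyp2j9 had a value of -0.56 (SE 0.23, adjusted p = 0.358) and Cyp2e1 of 0.14 (SE 0.18, adjusted p = 0.837), and Cyp2a22 was at 0.864, 1.60, 0.852 and 0.326 CPM (log2 0.33, SE 0.93, adjusted p = 0.934). All 13 Cyp2c values were positive, from 0.05 (Cyp2c55) to 2.16 (Cyp2c69), and all 5 Cyp3a values negative, from -0.49 (Cyp3a25) to -0.20 (Cyp3a13). Several genes of these subfamilies share words with each other, so their values may not be independent, but Cyp2c23, Cyp2c70 and Cyp3a13 share none. None of the values passed.

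Overlap hypoxia against room air. Cyp3a11 was the only member called, and it was lower. Over all genes 3.41% were called higher and 2.89% lower, and of the members 0 and 1 of 41. Cyp3a11 was at 6719.5, 4941, 3750.2 and 5944 CPM and fell by 0.81 (SE 0.23, adjusted p = 0.0381). Replicates 1 and 4 of overlap hypoxia lay above the lowest room air library. The call was lost without room air replicate 2, 3 or 4 or overlap hypoxia replicate 2 or 3 (log2 -0.84 to -0.66, adjusted p from 0.0617 to 0.147). DESeq2 called 1 member higher, Cyp2c23, and 3 lower, Cyp3a11, Cyp2d40 and Cyp2r1. Without room air replicate 1, 2 members were called higher and 3 lower, without intermittent hypoxia replicate 4, 1 and 3, and without intermittent hypoxia replicate 1, 2 were lower. The summed Cyp3a counts fell by 0.79 (SE 0.21, adjusted p = 0.0349), and that call too was lost without each of these 5 libraries. Cyp2d40 was at 52.4, 53.8, 57.4 and 60.5 CPM, each library below every room air library, and just missed the threshold (log2 -0.64, SE 0.20, adjusted p = 0.0618). Cyp2r1 was likewise below room air in each library at 10.03, 8.54, 8.47 and 10.5 CPM (log2 -0.58, SE 0.19, adjusted p = 0.0701). Cyp2c23 was above room air in each library at 142, 119, 162 and 106 CPM (log2 0.81, SE 0.27, adjusted p = 0.0863).

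Cyp2j9, which rose in intermittent hypoxia, was at 4.47, 2.58, 5.94 and 3.82 CPM in overlap hypoxia, within the room air range at 2 libraries and outside it at the other 2. Its difference from room air was -0.09 (SE 0.24, adjusted p = 0.864). Cyp1a2 was at 607, 588, 667 and 364 CPM (log2 0.65, SE 0.27, adjusted p = 0.164) and Cyp2a5 at 1130.3, 2205, 1256 and 726 CPM (log2 0.56, SE 0.44, adjusted p = 0.493). Cyp2e1 differed by 0.01 (SE 0.18, adjusted p = 0.989). Cyp2a22 held 0.518, 2.48, 0.786 and 0.0956 CPM, with a difference of 0.41 (SE 0.97, adjusted p = 0.853) that was -0.86 without overlap hypoxia replicate 2. Cyp2d10 and Cyp2d26 had values of -0.27 (SE 0.15) and -0.05 (SE 0.16).

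**Figure D4:**
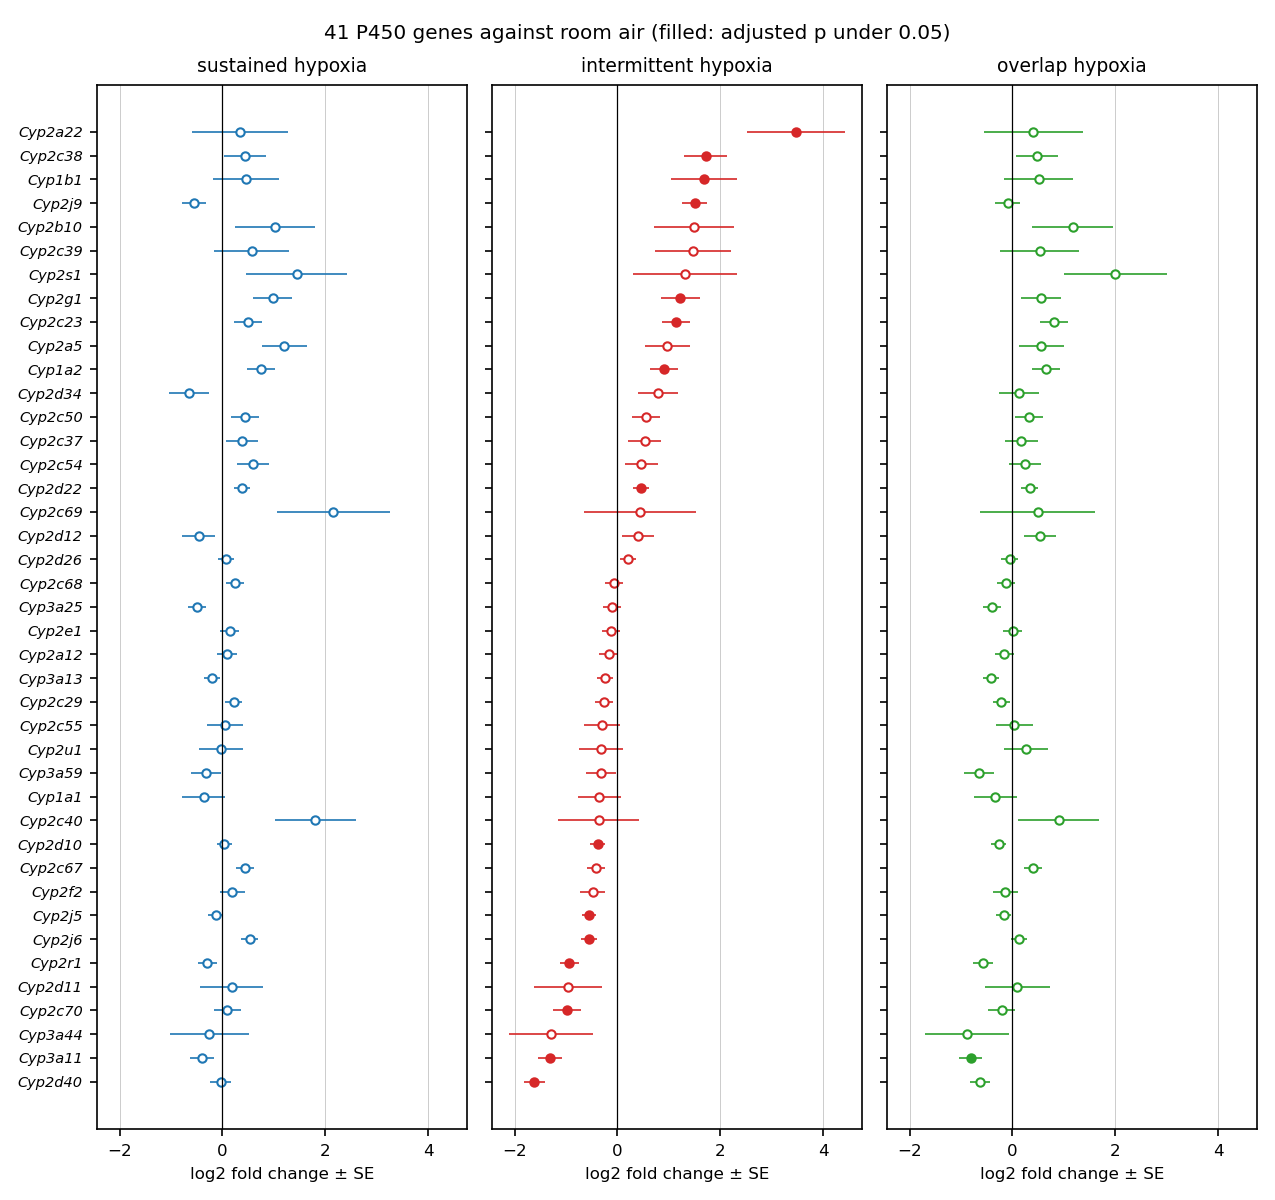
Log2 fold change ± SE (horizontal axes) of the 41 P450 genes in sustained, intermittent and overlap hypoxia against room air, genes ordered by the value in intermittent hypoxia. Filled points passed the test: none in sustained hypoxia, 15 in intermittent hypoxia and 1, Cyp3a11, in overlap hypoxia. All 3 panels share the room air libraries.

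Overlap hypoxia against intermittent hypoxia. Of the members, 3 were higher in overlap hypoxia and 1 lower, while 3.2% and 2.95% of all genes were called. Cyp2d40 was higher by 0.98 (SE 0.20, adjusted p = 0.0165), Cyp2c67 by 0.82 (SE 0.17, adjusted p = 0.0167) and Cyp2j6 by 0.69 (SE 0.16, adjusted p = 0.0204). For each of them every overlap hypoxia library (52.4 to 60.5, 246 to 410.2 and 78.1 to 92.2 CPM) lay above every intermittent hypoxia library (17.4 to 37.3, 152 to 199 and 40.1 to 58.8 CPM). Cyp2j9 was lower by a log2 value of -1.59 (SE 0.24, adjusted p = 0.00707), at 2.58 to 5.94 against 9.70 to 15.8 CPM. The call of Cyp2d40 was lost without overlap hypoxia replicate 4 (log2 0.94, adjusted p = 0.0657). That of Cyp2c67 was lost without the same library (log2 0.66, adjusted p = 0.0756), and that of Cyp2j6 without intermittent hypoxia replicate 3 or overlap hypoxia replicate 4 (log2 0.69 to 0.71, adjusted p from 0.0543 to 0.0657). Without intermittent hypoxia replicate 4 there were 6 members higher, and without sustained hypoxia replicate 4, 2 lower. When the fit held only these 2 groups, none of the 4 passed. With the ribosomal RNA share as a covariate only Cyp2c67 kept its call. Cyp2d40 (log2 0.76, adjusted p = 0.54), Cyp2j6 (log2 0.68, adjusted p = 0.48) and Cyp2j9 (log2 -0.96, adjusted p = 0.46) then did not pass. Cyp2c67 shares 52.8% of its words with other genes, and the summed Cyp2c counts did not differ past the test (log2 0.01, SE 0.16, adjusted p = 0.982). Cyp3a11 did not pass between these groups (log2 0.50, SE 0.22, adjusted p = 0.168).

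Overlap hypoxia against sustained hypoxia. No member passed in edgeR, in which 0.137% of all genes were higher and 0.0275% lower. DESeq2 and limma-voom called 1 member, Cyp2d12. It was at 4.16, 1.70, 4.89 and 3.01 CPM in overlap and 1.74, 1.42, 1.89 and 1.73 CPM in sustained hypoxia (log2 1.00, SE 0.32, adjusted p = 0.0938 in edgeR). The members' median was -0.12 and that of all genes 0.02. Cyp3a11 differed by -0.42 (SE 0.22, adjusted p = 0.303).

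Sustained hypoxia against intermittent hypoxia. The 2 single exposures differed in 16 members, 11 higher and 5 lower in sustained hypoxia, beside 18.9% and 19.5% of all genes. The higher side held Cyp3a11, Cyp2c70 and the fatty-acid-oxidising Cyp2j5, and the lower side Cyp2j9. Cyp3a11 was higher by 0.91 (SE 0.23, adjusted p = 0.00357), Cyp2c70 by 1.08 (SE 0.27, adjusted p = 0.00449) and Cyp2c67 by 0.85 (SE 0.17, adjusted p = 0.000727), each with no overlap between the groups. Cyp2d40 was higher by 1.58 (SE 0.20, adjusted p = 3.23e-05) and Cyp2j6 by 1.09 (SE 0.16, adjusted p = 5.9e-05), also with no overlap. Cyp2r1 (0.64), Cyp2f2 (0.68), Cyp2c29 (0.49), Cyp2j5 (0.42) and Cyp2d10 (0.42) were higher with smaller values. On the lower side Cyp2j9 stood at 2.96 ± 0.802 against 12.4 ± 2.58 CPM (log2 -2.06, SE 0.24, adjusted p = 1.37e-05). Cyp2d34, a low gene at 0.399 to 0.596 against 0.713 to 1.96 CPM, was at -1.44 (SE 0.39, adjusted p = 0.00685), with no overlap. Cyp2c38 (-1.28), Cyp2d12 (-0.86) and Cyp2a22 (-3.14) were lower too.

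Several of these calls were lost in fits that left out 1 library. Cyp2c40, which acts on arachidonic acid, was higher by 2.18 (SE 0.80, adjusted p = 0.0485), at 27.7, 26.2, 43.5 and 9.28 CPM against 2.36, 1.74, 0.83 and 17.9 CPM. Intermittent hypoxia replicate 4 lay far above the other 3, and the value without it was 3.98. The Cyp2c40 call was lost in 14 of the 16 fits that left out 1 library, and kept without sustained hypoxia replicate 4 or intermittent hypoxia replicate 4. The Cyp2f2 call was lost without sustained hypoxia replicate 3 or 4 or intermittent hypoxia replicate 2, 3 or 4 (log2 0.56 to 0.70, adjusted p from 0.0592 to 0.0988). For Cyp2c29 the call was lost without sustained hypoxia replicate 1 or 4 or intermittent hypoxia replicate 1, 2 or 3 (log2 0.34 to 0.48, adjusted p from 0.0603 to 0.118). Cyp2j5 did not pass without sustained hypoxia replicate 1 or intermittent hypoxia replicate 1 or 2 (log2 0.35 to 0.40, adjusted p from 0.0504 to 0.0769), and Cyp2d10 without sustained hypoxia replicate 4 or intermittent hypoxia replicate 1 (log2 0.32 to 0.40, adjusted p from 0.0597 to 0.0804). On the lower side Cyp2a22 did not pass without sustained hypoxia replicate 4 or intermittent hypoxia replicate 4 (log2 -2.87 to -1.75, adjusted p from 0.0516 to 0.0727). For Cyp2c38 this was so without sustained hypoxia replicate 3 or intermittent hypoxia replicate 3 or 4 (log2 -1.19 to -1.11, adjusted p from 0.0583 to 0.0714), and for Cyp2d12 without sustained hypoxia replicate 1, 2, 3 or 4 or intermittent hypoxia replicate 2 or 3 (log2 -0.90 to -0.60, adjusted p from 0.0545 to 0.164). Without sustained hypoxia replicate 3 or 4, or intermittent hypoxia replicate 3, 3 members were lower, and without intermittent hypoxia replicate 1 or 2, 7 were higher. The subfamily sums of Cyp2f, Cyp2j, Cyp2r and Cyp3a were higher in sustained hypoxia (0.68, 0.52, 0.64 and 0.81), and no other sum passed. The Cyp2c sum was at log2 0.27, SE 0.16, adjusted p = 0.207, and the Cyp2a sum at log2 0.23, SE 0.34, adjusted p = 0.634. The Cyp2f sum lost its call without the same libraries as Cyp2f2. With offsets for length and GC content Cyp2d10 (log2 0.12, adjusted p = 0.521) and Cyp2f2 (log2 0.40, adjusted p = 0.246) were smaller and did not pass. With the ribosomal RNA share, in which the 2 groups do not overlap, as a covariate none of the 16 calls was left, and 14 of the values kept their sign. Higher in sustained hypoxia were Cyp2c40 (0.63), Cyp2d40 (1.25), Cyp2j6 (1.07), Cyp2c70 (1.70), Cyp3a11 (0.94), Cyp2c67 (1.69), Cyp2f2 (1.00), Cyp2r1 (0.49), Cyp2j5 (0.57) and Cyp2d10 (0.26), and lower Cyp2a22 (-6.70), Cyp2j9 (-1.11), Cyp2d34 (-0.02) and Cyp2c38 (-1.73).

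The bases before the start of Cyp2c70, Cyp2c67 and Cyp2c40 are shown because these members were higher in sustained than in intermittent hypoxia and hold the HNF4 motif CAAAGTCCA, as Cyp3a11 does. They are RefSeq sequences of GRCm38.p6, minus strand, at chr19:40187334-40187536, chr19:39649052-39649292 and chr19:39812815-39813064, without the bases that GENCODE places inside the gene. Capitals mark CAAAGTCCA or its reverse complement and the TATA box letters TATAAA (in Cyp2c67).
Cyp2c70: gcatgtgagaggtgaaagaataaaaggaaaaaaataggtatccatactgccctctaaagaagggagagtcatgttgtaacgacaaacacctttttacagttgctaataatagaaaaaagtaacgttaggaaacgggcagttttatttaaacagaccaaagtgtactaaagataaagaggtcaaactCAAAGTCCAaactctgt
Cyp2c67: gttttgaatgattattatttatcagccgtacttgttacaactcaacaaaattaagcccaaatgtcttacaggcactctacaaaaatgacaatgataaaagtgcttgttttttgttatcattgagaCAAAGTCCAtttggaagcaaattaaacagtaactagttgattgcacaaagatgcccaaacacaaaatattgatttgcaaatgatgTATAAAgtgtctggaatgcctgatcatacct
Cyp2c40: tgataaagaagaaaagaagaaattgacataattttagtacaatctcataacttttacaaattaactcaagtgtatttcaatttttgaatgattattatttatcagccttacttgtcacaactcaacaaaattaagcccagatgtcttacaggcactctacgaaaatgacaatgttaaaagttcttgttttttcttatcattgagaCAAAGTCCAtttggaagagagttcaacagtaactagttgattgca
The HNF4 letters lie 109 to 101 bases before the start in Cyp3a11, 64 to 56 in Cyp2c70, 125 to 117 in Cyp2c67 and 45 to 37 in Cyp2c40. GENCODE places the start of Cyp3a11 110 bases further upstream, so that its match lies inside the gene by that annotation. Of the 41 members, 34 had a RefSeq window (36 windows), and CAAAGTCCA, searched on both strands, was in 6 of the 36 (16.7%) but in 0.384% of all 32851 windows. The other 2 were Cyp2c68 and Cyp2c69, which did not pass between these groups (log2 0.31, SE 0.17, and log2 1.72, SE 1.08). Cyp2d40, Cyp2j6, Cyp2f2, Cyp2r1, Cyp2c29, Cyp2j5 and Cyp2d10 were also higher in sustained hypoxia but not among the genes with this motif. Not every member had a window. The Cyp2c40, Cyp2c67, Cyp2c68 and Cyp2c69 genes are near copies, so their matches are not independent. TATAAA, on the gene's strand, was in 13 member windows (36.1%, 7.59% of all windows). The DBP and TEF letters TTATGTAA and TTACGTAA and the STAT5 letters TTCNNNGAA were in 0 of the 36 windows (0.931% and 7.02% of all). No match says only that these letters are not in these windows.

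The genes that serve the P450 enzymes were read from the same fit. Of 19 partner and haem genes, 1 rose and 6 fell in intermittent hypoxia against room air (18.9% and 18.3% of all genes). Steps of haem synthesis were among the latter: Uros fell by 0.90 (SE 0.15, adjusted p = 0.00013) and Urod by 0.63 (SE 0.12, adjusted p = 0.000444). Blvra, which reduces biliverdin made from haem, fell by 0.98 (SE 0.14, adjusted p = 5.16e-05). With the ribosomal RNA share as a covariate none of these calls was left. The log2 values were then -0.91 for Uros (adjusted p = 0.129), -0.43 for Urod (adjusted p = 0.342) and -0.73 for Blvra (adjusted p = 0.191). The gene that rose, named after its values were seen, was Cyb5r3, an electron donor to cytochrome b5, at 0.70 (SE 0.16, adjusted p = 0.00212). In overlap hypoxia Cyb5r3 alone passed (log2 0.68, SE 0.16, adjusted p = 0.0207; 3.41% and 2.89% of all genes). That call was lost without room air replicate 3 or 4 (log2 0.64 to 0.67, adjusted p from 0.0626 to 0.065) and with length and GC offsets (log2 0.48, adjusted p = 0.0722). In sustained hypoxia no gene of the list passed. Por, the oxidoreductase that feeds all microsomal P450 enzymes, was at 0.44 (SE 0.36), 0.15 (SE 0.36) and -0.04 (SE 0.36) under the sustained, intermittent and overlap regimes. Alas1, the first enzyme of haem synthesis, was at 0.05 (SE 0.42), 0.26 (SE 0.42) and -0.06 (SE 0.42). Neither passed in any comparison, and both changed sign under other settings. In overlap against intermittent hypoxia 2 of the 19 were higher (3.2% of all genes), Uros (log2 0.62, SE 0.15, adjusted p = 0.0235) and Blvra (log2 0.56, SE 0.15, adjusted p = 0.0304). The Uros call was lost without intermittent hypoxia replicate 2 or 3 or overlap hypoxia replicate 4 (log2 0.51 to 0.64, adjusted p from 0.0556 to 0.0861), and that of Blvra without intermittent hypoxia replicate 1, 2 or 3 or overlap hypoxia replicate 2 or 4 (log2 0.49 to 0.59, adjusted p from 0.0639 to 0.102) and in limma-voom. With only these 2 groups in the fit neither passed. With the ribosomal RNA share as a covariate Uros (adjusted p = 0.476) and Blvra (adjusted p = 0.732) did not pass either. In sustained against intermittent hypoxia 6 were higher and 0 lower (18.9% and 19.5% of all genes), led by Blvra (log2 1.10, SE 0.15, adjusted p = 3.23e-05). That Blvra call was lost with the same covariate (log2 0.81, adjusted p = 0.397).

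Of 26 regulators of P450 genes 25 were tested, and 7 rose and 0 fell in intermittent hypoxia (18.9% and 18.3% of all genes). Among these were Tef (log2 1.39, SE 0.16, adjusted p = 7.24e-06), Dbp (log2 0.99, SE 0.17, adjusted p = 0.000161) and Arnt (log2 0.61, SE 0.17, adjusted p = 0.00761), the partner of AHR. With length and GC offsets Arnt did not pass (log2 0.36, adjusted p = 0.103). With the ribosomal RNA share as a covariate Tef kept its call. Dbp (log2 1.10, adjusted p = 0.115) and Arnt (log2 0.37, adjusted p = 0.573) then did not pass. Dbp was the 1 regulator called in sustained hypoxia (log2 1.16, SE 0.17, adjusted p = 0.00595), and Dbp (log2 1.05, SE 0.17, adjusted p = 0.00303) and Tef (log2 0.79, SE 0.15, adjusted p = 0.00761) were those called in overlap hypoxia. The Tef value there did not pass with length and GC offsets (log2 0.51, adjusted p = 0.0663). Both are clock-output factors, and the labels give no hour of collection. In overlap against intermittent hypoxia 2 were lower (2.95% of all genes), Ppargc1a (log2 -1.06, SE 0.24, adjusted p = 0.0215) and Tef (log2 -0.60, SE 0.15, adjusted p = 0.029). The Ppargc1a call was lost without overlap hypoxia replicate 2 or 4 (log2 -1.06 to -0.997, adjusted p from 0.051 to 0.081). That of Tef was lost without intermittent hypoxia replicate 2 or 3 or overlap hypoxia replicate 1, 2 or 4 (log2 -0.61 to -0.55, adjusted p from 0.0513 to 0.102) and with length and GC offsets (log2 -0.38, adjusted p = 0.137). With only these 2 groups in the fit neither passed. With the ribosomal RNA share as a covariate Ppargc1a (adjusted p = 0.319) and Tef (adjusted p = 0.517) did not pass either. Between sustained and intermittent hypoxia 1 was higher and 6 lower (18.9% and 19.5% of all genes), Ppargc1a (log2 -1.21, SE 0.24, adjusted p = 0.000657) and Tef (log2 -0.74, SE 0.15, adjusted p = 0.000972) among the latter. With length and GC offsets this Tef value did not pass (log2 -0.31, adjusted p = 0.135). Both calls were lost with the ribosomal RNA share as a covariate (Ppargc1a log2 -1.56, adjusted p = 0.333, and Tef log2 -0.81, adjusted p = 0.443).

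Position along the lobule was read from genes other than P450. Of 10 pericentral genes 3 rose and 0 fell in intermittent hypoxia (18.9% and 18.3% of all genes), Slc1a2 (log2 0.72, SE 0.15, adjusted p = 0.00118), Axin2 (log2 1.57, SE 0.39, adjusted p = 0.00348) and Glul (log2 0.50, SE 0.19, adjusted p = 0.0466). The Glul call was lost without room air replicate 2, 3 or 4, sustained hypoxia replicate 1, 2 or 3 or intermittent hypoxia replicate 2, 3 or 4 (log2 0.42 to 0.50, adjusted p from 0.0543 to 0.123). Slc1a2 did not pass with length and GC offsets (log2 0.29, adjusted p = 0.177). In overlap hypoxia Glul (log2 0.80, SE 0.19, adjusted p = 0.021) and Slc1a2 (log2 0.55, SE 0.15, adjusted p = 0.0387) rose, beside 3.41% of all genes. There the Glul call was lost without room air replicate 2, 3 or 4 or overlap hypoxia replicate 3 (log2 0.67 to 0.78, adjusted p from 0.0528 to 0.0833). That of Slc1a2 was lost without room air replicate 2, 3 or 4 or overlap hypoxia replicate 1, 2 or 3 (log2 0.49 to 0.58, adjusted p from 0.0553 to 0.126), with length and GC offsets (log2 0.39, adjusted p = 0.173) and with the ribosomal RNA share as a covariate. Of 11 periportal genes 0 rose and 4 fell in intermittent hypoxia (18.9% and 18.3% of all genes), Ass1 (log2 -0.72, SE 0.21, adjusted p = 0.00929), Hsd17b13 (log2 -0.77, SE 0.23, adjusted p = 0.0142), Arg1 (log2 -0.58, SE 0.18, adjusted p = 0.0157) and Cps1 (log2 -0.53, SE 0.17, adjusted p = 0.0165). The Hsd17b13 call was lost without intermittent hypoxia replicate 2 or 3 (log2 -0.66 to -0.58, adjusted p from 0.0556 to 0.0568) and with length and GC offsets (log2 -0.54, adjusted p = 0.0741). That of Arg1 was lost without room air replicate 3 or intermittent hypoxia replicate 2 (log2 -0.52 to -0.50, adjusted p from 0.0546 to 0.0583) and with those offsets (log2 -0.33, adjusted p = 0.135), and that of Cps1 without room air replicate 3 or intermittent hypoxia replicate 2 (log2 -0.45 to -0.39, adjusted p from 0.0651 to 0.074). In sustained against intermittent hypoxia 5 periportal genes were higher and 1 lower (18.9% and 19.5% of all genes). Asl was among the higher (log2 0.57, SE 0.19, adjusted p = 0.0203), a call lost without sustained hypoxia replicate 3 or intermittent hypoxia replicate 2 (log2 0.47 to 0.53, adjusted p from 0.0523 to 0.0756). With the ribosomal RNA share as a covariate no named pericentral or periportal call between intermittent hypoxia and room air was left. The log2 values were then Slc1a2 (0.83), Axin2 (1.99), Glul (0.54), Ass1 (-0.12), Hsd17b13 (-0.75), Arg1 (-0.31) and Cps1 (-0.46). None of either list passed in sustained hypoxia against room air. P450 genes that are usually pericentral went both ways beside them: Cyp1a2 rose in intermittent hypoxia, Cyp3a11 fell and Cyp2e1 did not pass.

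Markers of other liver cells moved with the exposures as well. Beside the counts given here, 18.9% of all genes were called higher and 18.3% lower in intermittent hypoxia against room air. In overlap hypoxia these shares were 3.41% and 2.89%. Against room air, 5 of 6 Kupffer cell markers fell under intermittent and 5 under overlap exposure. Their summed level was 66.1 to 119 CPM in room air, 45.1 to 78.5 in sustained, 22.7 to 49.2 in intermittent and 28.0 to 33.1 in overlap hypoxia. Sinusoidal endothelial markers summed to 67.5 to 84.9 CPM in room air, 51.3 to 69.0 in sustained, 60.1 to 76.3 in intermittent and 27.5 to 52.1 in overlap hypoxia, with 1 of 5 higher and 1 lower in intermittent hypoxia and 3 lower in overlap hypoxia. Of 5 stellate cell markers 1 rose in intermittent hypoxia and 0 passed in the other groups against room air, and of 4 cholangiocyte markers 0 passed in any comparison. Hepatocyte markers summed to 58353 to 86118 CPM in room air and 55439 to 80285 in intermittent hypoxia, where 3 of 6 fell. The nuclear RNAs Malat1 and Neat1 together were at 18.4 to 242 CPM in room air and 211 to 1210.4 in intermittent hypoxia. Their part in the P450 results was not tested.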

How the data were processed

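Liver RNA of 16 libraries was sequenced from 1 ug of total RNA with an Illumina TruSeq kit, per the labels' protocols. The authors deposited 1 table of expected counts per gene (estimated counts, unscaled); Bowtie 1.3.0, RSEM and the GRCm38 genome are named in the submitters' processing notes, and no source used here gives the annotation release, the read length or the strand setting. RSEM divides reads that fit several genes, so counts of near copies depend on each other.

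Expected counts were rounded and tested with edgeR 4.0.16 in R 4.3.3 (filterByExpr, TMM, robust quasi-likelihood fit, 1 coefficient per group over all 16 libraries, Benjamini-Hochberg over 14553 genes, threshold 0.05). The tool was tested on simulated data. SE is the size of the log2 fold change divided by the square root of the F statistic. CPM use TMM; levels per length divide by the exon length of GENCODE M21. DESeq2 1.42.0, limma 3.58.1 (voom), other scalings, no filter, the compared groups alone, a replicate block, a ribosomal RNA covariate, length and GC offsets and leaving out each library were alternatives. Python 3.11.15 handled sequences and figures.

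The members and gene lists were chosen with earlier results of these data known, and so were the motifs. Named were the 6 genes that mark the family in comparisons against room air, members past the test (up to 12 each way), the 5 with the highest level per length, and up to 4 called genes per pathway list with Por and Alas1. Other genes named were chosen after their values were seen, and some listed genes are not reported here. Libraries number 1 to 4 in each group, but nothing says that a number marks a shared mouse, cage or day.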

Additional observations from a re-analysis of the deposited data

Results flagged for a closer look

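In 7 places 1 library lay far from the other 3 of its group, and 5 of them were intermittent hypoxia replicate 4. In that library Cyp2a22 was at 23.1 CPM, against 2.58 to 3.97 CPM in the other 3, and Cyp2b10 at 19.1 CPM, against 2.61 to 4.67 CPM. Cyp2c40 was at 17.9 CPM, against 0.830 to 2.36 CPM, and Cyp2c69, a near copy of it, at 7.37 CPM, against 0 to 0.689 CPM. The Cyp2b sum, which includes Cyp2b10, was at 83.4 CPM, against 5.16 to 8.64 CPM. Most of it came from Cyp2b genes that are not members, since Cyp2b10 held 19.1 CPM there. Cyp2c50 was low in intermittent hypoxia replicate 1, at 261 CPM against 586 to 647 CPM in the others. Cyp2d10 was at 1206 CPM in sustained hypoxia replicate 4, and at 1088 to 1103 CPM in the others. The gap to the nearest library was compared with the range of the group, a test by which chance marks about 1 in 20 groups. It covered 192 groups, those of the 41 members and of the 7 subfamily sums over several genes.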

How the results depend on the processing

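With upper-quartile scaling, counts differed from the reported ones for members higher, sustained hypoxia against intermittent hypoxia (7, reported 11). Without a filter on low counts, counts differed from the reported ones for members higher, intermittent hypoxia against room air (5, reported 8), subfamily sums, intermittent hypoxia against room air (4, reported 7), members lower, overlap hypoxia against room air (2, reported 1). In DESeq2, counts differed from the reported ones for members higher, overlap hypoxia against room air (1, reported 0), members lower, overlap hypoxia against room air (3, reported 1), subfamily sums, overlap hypoxia against room air (2, reported 1), members lower, overlap hypoxia against intermittent hypoxia (3, reported 1), subfamily sums, overlap hypoxia against intermittent hypoxia (1, reported 0), members higher, overlap hypoxia against sustained hypoxia (1, reported 0). In limma-voom with quality weights, counts differed from the reported ones for members higher, overlap hypoxia against room air (1, reported 0), members lower, overlap hypoxia against room air (2, reported 1), members higher, overlap hypoxia against sustained hypoxia (1, reported 0). With only the compared groups in the fit, counts differed from the reported ones for members lower, overlap hypoxia against room air (0, reported 1), subfamily sums, overlap hypoxia against room air (0, reported 1), members higher, overlap hypoxia against intermittent hypoxia (0, reported 3), members lower, overlap hypoxia against intermittent hypoxia (0, reported 1). With the replicate number as a block, counts differed from the reported ones for members higher, overlap hypoxia against room air (1, reported 0), members lower, overlap hypoxia against room air (2, reported 1), subfamily sums, overlap hypoxia against intermittent hypoxia (1, reported 0). With the ribosomal RNA share as a covariate, counts differed from the reported ones for members higher, intermittent hypoxia against room air (1, reported 8), members lower, intermittent hypoxia against room air (0, reported 7), subfamily sums, intermittent hypoxia against room air (0, reported 7), members lower, overlap hypoxia against room air (0, reported 1), subfamily sums, overlap hypoxia against room air (0, reported 1), members higher, overlap hypoxia against intermittent hypoxia (1, reported 3), members lower, overlap hypoxia against intermittent hypoxia (0, reported 1), members higher, sustained hypoxia against intermittent hypoxia (0, reported 11), members lower, sustained hypoxia against intermittent hypoxia (0, reported 5), subfamily sums, sustained hypoxia against intermittent hypoxia (0, reported 4). Leaving out 1 library at a time gave these ranges of counts: members higher, intermittent hypoxia against room air (5 to 12), subfamily sums, intermittent hypoxia against room air (4 to 7), members higher, overlap hypoxia against room air (0 to 2), members lower, overlap hypoxia against room air (0 to 3), subfamily sums, overlap hypoxia against room air (0 to 2), members higher, overlap hypoxia against intermittent hypoxia (0 to 6), members lower, overlap hypoxia against intermittent hypoxia (1 to 2), subfamily sums, overlap hypoxia against intermittent hypoxia (0 to 1), members higher, overlap hypoxia against sustained hypoxia (0 to 1), members higher, sustained hypoxia against intermittent hypoxia (7 to 13), members lower, sustained hypoxia against intermittent hypoxia (3 to 6). Some log2 values changed sign under other settings. For Cyp2a22 in sustained hypoxia against room air these were -0.23 with the ribosomal RNA share as a covariate, -0.10 to 0.99 over the left-out libraries. For Cyp2e1 in intermittent hypoxia against room air these were 0.14 with the ribosomal RNA share as a covariate, 0.11 with length and GC offsets, -0.34 to 0.0111 over the left-out libraries. For Cyp2e1 in overlap hypoxia against room air these were -0.0043 without a filter on low counts, -0.0151 in limma-voom with quality weights, -0.0755 to 0.053 over the left-out libraries. For Cyp2a22 in overlap hypoxia against room air these were -0.69 in limma-voom with quality weights, -0.86 to 1.05 over the left-out libraries. For Cyp2j9 in overlap hypoxia against room air these were 0.004 with length and GC offsets, -0.27 to 0.0905 over the left-out libraries. For Cyp2c29 in sustained hypoxia against intermittent hypoxia these were -0.0637 with the ribosomal RNA share as a covariate. For Cyp2d12 in sustained hypoxia against intermittent hypoxia these were 0.12 with the ribosomal RNA share as a covariate. For Cyp2d10 in sustained hypoxia against room air these were -0.0644 with length and GC offsets. For Cyp2d26 in sustained hypoxia against room air these were -0.0238 with length and GC offsets, -0.0122 to 0.20 over the left-out libraries. For Cyp2d26 in overlap hypoxia against room air these were 0.0604 with length and GC offsets, -0.17 to 0.0772 over the left-out libraries. For Asl in sustained hypoxia against intermittent hypoxia these were -0.15 with the ribosomal RNA share as a covariate. For Alas1 in sustained hypoxia against room air these were -0.0732 with length and GC offsets, -0.30 to 0.35 over the left-out libraries. For Por in intermittent hypoxia against room air these were -0.27 with length and GC offsets, -0.10 to 0.47 over the left-out libraries. For Alas1 in intermittent hypoxia against room air these were -0.14 with length and GC offsets. For Por in overlap hypoxia against room air these were 0.0153 with upper-quartile scaling, 0.18 with the ribosomal RNA share as a covariate, -0.38 to 0.28 over the left-out libraries. For Alas1 in overlap hypoxia against room air these were -0.29 to 0.23 over the left-out libraries. Upper-quartile scaling moved the all-gene median log2 value to 0.12 (intermittent hypoxia, room air) and -0.12 (sustained, intermittent hypoxia). The replicate numbers share no stated source: 4 of 24 same-numbered pairs correlated above 0.1 (-0.103 to 0.183) and 8 of 16 libraries correlated best with their own number. Pairs with different numbers ran from -0.22 to 0.198, and no chance level was worked out for these counts. The block also gave smaller shifts: 7 members higher (reported 8) and 5 subfamily sums (reported 7) in intermittent hypoxia with room air as the base, and 4 members lower (reported 5) and 5 subfamily sums (reported 4) between the single exposures. The cause of these changes was not tested. Genes at few reads, such as Cyp1b1 and Cyp2s1, are limited by depth.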
